A study of Mus musculus with 12 samples.

Results

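Ion channels and ion pumps of myelinating oligodendrocytes were examined through 10 genes: the mechanosensitive channel Tmem63a, the potassium channels Kcnj10, Kcnj9, Kcnj13, Kcnk2 and Kcnt2, the cation channel Hcn2, and the pump genes Atp1b1, Atp2b1 and Atp2b4. They were taken by name, and all 10 were found among the 2398 genes of the count table. The cells had been sorted from brains of C57BL/6 mice as positive for the Ndrg1-EGFP reporter, which marks oligodendrocytes that make myelin, and negative for propidium iodide, which stains dead cells. The KO group was CnpCre/+;Lmnafl/fl and the WT group Cnp+/+;Lmnafl/fl, so both carried the reporter and the floxed alleles of Lmna, the gene of lamins A and C, and the KO mice also carried Cre in 1 allele of Cnp, an oligodendrocyte gene. Their age is labelled as postnatal day 60, while the growth protocol has 8 weeks. Each genotype had 3 biological replicates with 2 libraries each, 12 libraries in all, and the sources used here do not say how many animals made a replicate.

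Axons release potassium each time they fire, and oligodendrocytes and astrocytes take it up through inwardly rectifying potassium channels and the sodium-potassium pump. Kcnj10 encodes the main glial channel of this kind, and its loss from oligodendrocytes is known to slow potassium clearance in white matter. Calcium that enters the cell is expelled by plasma membrane calcium pumps of the Atp2b family. Tmem63a encodes a channel opened by membrane stretch, and human variants of its gene cause a hypomyelinating leukodystrophy of infancy.

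The levels separated neighbouring genes of the same family. Kcnj10 and Kcnj9, both inward rectifiers, lie next to each other on chromosome 1 and are transcribed away from each other, with starts 11.9 kb apart, yet their levels per length of transcript differed by 478-fold or more in each of the 6 replicates (281-fold or more with the median transcript length of each gene). The 250 bases before each start are shown from RefSeq in GRCm38.p6, because these 2 neighbours had such unlike levels. The window of Kcnj10 is chr1:172340960-172341209 on the plus strand and that of Kcnj9 is chr1:172329323-172329572 on the minus strand, each written 5′ to 3′ with CG dinucleotides in capitals.
Kcnj10: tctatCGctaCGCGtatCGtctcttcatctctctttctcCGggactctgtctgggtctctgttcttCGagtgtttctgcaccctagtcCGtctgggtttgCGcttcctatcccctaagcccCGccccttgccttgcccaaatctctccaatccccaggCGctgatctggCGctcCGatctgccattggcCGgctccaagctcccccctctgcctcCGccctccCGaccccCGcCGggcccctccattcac
Kcnj9: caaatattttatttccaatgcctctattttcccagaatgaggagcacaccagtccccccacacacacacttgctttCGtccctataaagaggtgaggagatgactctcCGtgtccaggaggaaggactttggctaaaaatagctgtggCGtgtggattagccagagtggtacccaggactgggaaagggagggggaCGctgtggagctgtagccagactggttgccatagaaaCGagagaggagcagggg
The Kcnj10 window held 17 CG dinucleotides and the Kcnj9 window 5. CG was also counted in the RefSeq windows of 300 bases, from 250 before to 50 after a start, which were listed for all 10 genes. CG reads the same on both strands, so 1 strand was counted. The windows of Tmem63a, Hcn2, Kcnj10 and Atp1b1 held 33, 26, 21 and 31, and both windows of Atp2b1 held 54 and 45, against a median of 7 over 32851 windows of all genes. At least as many CG as in the Kcnj10 window were found in 24.8% of all windows. The windows of Kcnj13, Kcnj9 and Atp2b4 held 5, 5 and 4, that of Kcnt2 held 12, and the 4 windows of Kcnk2 held 3 to 33. The windows of the 5 genes with the highest levels held 21 or more CG, but so did 2 of the 4 windows of the scarce Kcnk2, with 33 each, and Kcnt2, which had no counts, lay above the median. These counts describe the letters and were not tied to transcription by any test.

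The table covered genes of chromosome 1 and, below 111.3 Mb, of chromosome 10, and its counts were between 3694551 and 6093336 per replicate. Lmna and Cnp are not analysed here, and loss of Lmna could not be checked. The summed markers of mature oligodendrocytes (Adamts4, Nfasc, Cntn2, Tmeff2 and Cdh19) stood at 45934 to 50154 CPM in KO and at 40102 to 42889 CPM in WT, where CPM is a gene's count scaled to a fixed total of counts in these genes (counts per 1000000) with TMM factors. Every KO sum lay above every WT sum, and the part of this in the values below was not tested. Singly, Adamts4 and Nfasc did not overlap between the genotypes, while Cntn2, Tmeff2 and Cdh19 did. Of all tested genes, 8.49% did not overlap. None of the 5 was called by edgeR, where their lowest adjusted p was 0.504, beside 0% of all tested genes. All 5 of these markers were present, and most myelin protein genes were not analysed here. The other marker lists summed to far less. The 5 astrocyte genes gave 541 to 1173 CPM in KO and 400.2 to 938 CPM in WT, and the 6 neuronal genes 260.2 to 346 CPM in KO and 251 to 545 CPM in WT. The 7 microglia and macrophage genes gave 105 to 446 CPM in KO and 104 to 207 CPM in WT, the 9 vascular and fibroblast genes 1019 to 1350 CPM in KO and 876 to 1127 CPM in WT, and the 2 progenitor genes 12.2 to 95.6 CPM in KO and 0.497 to 36.5 CPM in WT. Col6a2 was the largest part of the vascular and fibroblast sum, at 397 to 845 CPM, and stood at 711 CPM in WT replicate 3. Dcn, Fn1, Col3a1 and Col6a1 were lowest in that replicate, at 28.8, 38.5, 16.2 and 27.5 CPM, while Cd34 and Col18a1 were not. The labels call the replicates biological, and the p-values set the difference of the genotypes against the spread between replicates. In these bulk samples fewer cells of a type and less RNA per cell cannot be told apart.

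Tmem63a was the most abundant of the 10 genes by a wide margin. It stood at 12439, 12371 and 13248 CPM in KO replicates 1, 2 and 3, against 11847, 12038 and 12959 CPM in WT replicates 1, 2 and 3. The replicates of both genotypes lay close together and overlapped. Divided by its longest transcript of 3.306 kb, its level was 3837 ± 148 CPM per kb in KO and 3715 ± 180 CPM per kb in WT (SD, n = 3 each), which ranked 15th of 1948 genes with a known length. For scale, Tmeff2 and Adamts4, abundant oligodendrocyte transcripts, ranked 8th and 35th on the same measure. The level of Tmem63a was also steady: its coefficient of variation over the 6 replicates was 4.28%, against a median of 17.6% over the 1484 genes tested, and 13 of those genes varied less. Among the 50 most abundant tested genes, whose median coefficient of variation was 11.6%, 1 varied less than Tmem63a. Tmem63a (Entrez Gene 208795) lies at chr1:180942286-180975106 in mm10, and 3.50% of its exon bases are shared with 2210411M09Rik on the other strand.

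**Figure D1:**
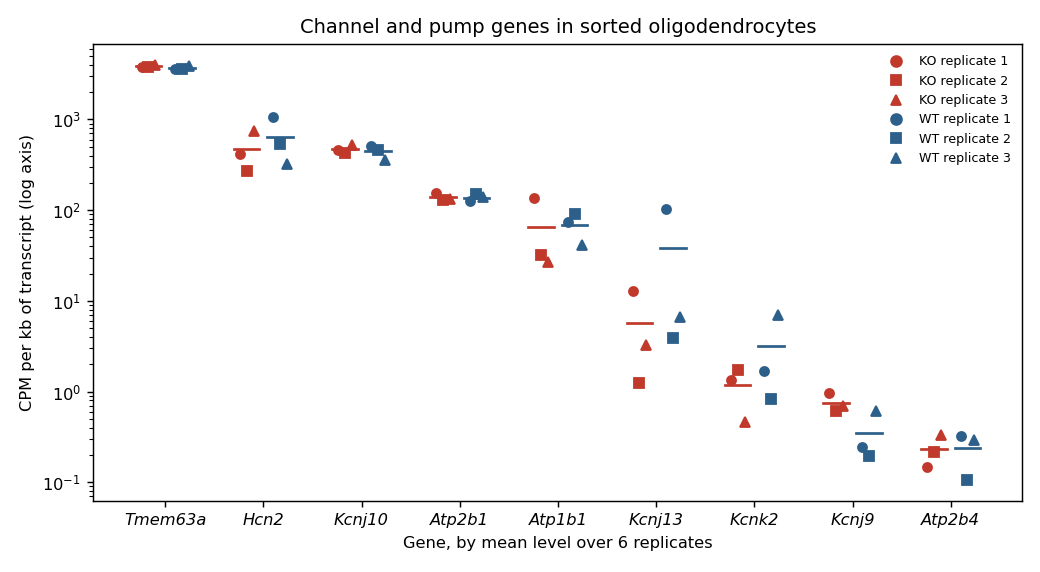
Level of each gene in CPM per kb of its longest transcript (log axis), with 1 symbol for each KO (red, left) and WT (blue, right) replicate and a line at the group mean. Tmem63a sits near 3776 CPM per kb in all 6 replicates, while Kcnj13 has 1 WT replicate at 103 CPM per kb and the others below 13; Kcnt2 had no count and is not drawn.

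Of the inward rectifiers, Kcnj10 (Entrez Gene 16513, chr1:172341210-172374085 in mm10) was the abundant one. It stood at 2479, 2312 and 2842 CPM in KO replicates 1 to 3, against 2785, 2516 and 1942 CPM in WT replicates 1 to 3. The lowest value was that of WT replicate 3, and the genotypes overlapped. Per length its level was 471 ± 50.1 CPM per kb in KO and 447 ± 79.6 CPM per kb in WT (SD, n = 3 each), rank 149 of 1948. Kcnj10 is also a gene of astrocytes, so the astrocyte markers were set beside it. Their sum varied from 400.2 to 1173 CPM over the 6 replicates, and Kcnj10 varied from 1942 to 2842 CPM. By replicate the sum was 1173, 829 and 541 CPM in KO and 938, 484 and 400.2 CPM in WT, and the part of astrocyte RNA in the Kcnj10 values was not tested. Gja1, the main astrocyte gap junction gene, stood at 736, 186 and 158 CPM in KO and at 372, 294 and 92.7 CPM in WT. Gpr37l1, a receptor gene of astrocytes, was distributed differently over the replicates, at 187, 442 and 277 CPM in KO and 289, 58.6 and 179 CPM in WT.

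Kcnj9 (Entrez Gene 16524, chr1:172320508-172329322), a subunit of G protein-gated potassium channels of neurons, was near the limit of counting. Its counts were 13, 15 and 13 in KO replicates 1 to 3, against 5, 3 and 13 in WT replicates 1 to 3, which is 2.37 to 3.70 CPM in KO and 0.745 to 2.34 CPM in WT. All KO values were above all WT values after scaling, but KO replicate 2 at 2.37 CPM and WT replicate 3 at 2.34 CPM were almost equal. The ratio of Kcnj10 to Kcnj9 per kb lay between 478 and 2409 over the 6 replicates, and the exact Poisson interval of the 3 counts in WT replicate 2 puts the highest ratio between 824 and 11680. With the median transcript length the ratios ran from 281 to 1414.

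Kcnj13 (Entrez Gene 100040591, chr1:87384577-87394729), an inward rectifier best known from choroid plexus and retinal pigment epithelium, was set by 1 replicate. It stood at 16.2, 1.58 and 4.14 CPM in KO replicates 1 to 3, against 131, 4.97 and 8.46 CPM in WT replicates 1 to 3. WT replicate 1 stood far above the other 5, and KO replicate 1 came second. The choroid plexus markers F5, a coagulation factor gene, and Igfbp2, an insulin-like growth factor binding protein gene, were highest in the same 2 replicates. F5 stood at 6.55, 3.01 and 0.621 CPM in KO and at 22.2, 0 and 0 CPM in WT, and Igfbp2 at 122, 35.1 and 34.3 CPM in KO and at 269.5, 62.3 and 17.5 CPM in WT. Their part in the Kcnj13 values was not tested. Kcnj13 lies inside Gigyf2 on the opposite strand, and 49.1% of its exon bases are shared with exons of that gene, so its counts are uncertain to that extent. Gigyf2 itself stood at 383, 357 and 370.2 CPM in KO and at 311, 412 and 383 CPM in WT, lowest in the replicate where Kcnj13 was highest.

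**Figure D2:**
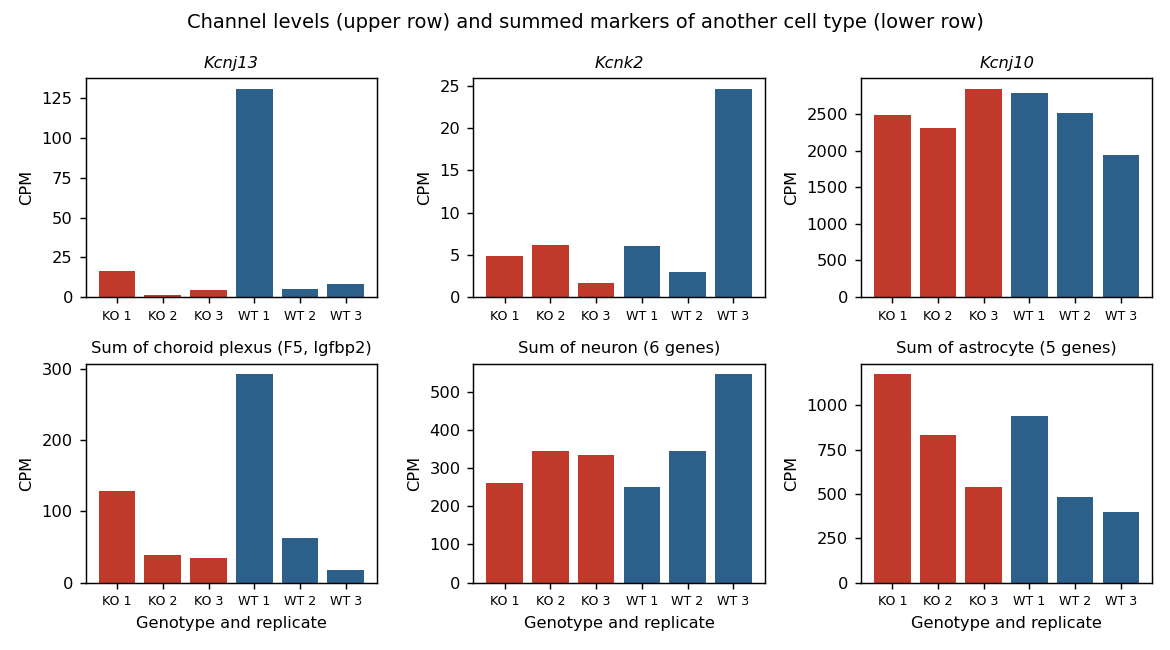
Kcnj13, Kcnk2 and Kcnj10 in CPM (upper row) above the summed CPM of choroid plexus, neuronal and astrocyte markers (lower row), with 1 bar for each KO (red) and WT (blue) replicate. Kcnj13 and the choroid plexus sum are both highest in WT replicate 1, and Kcnk2 and the neuronal sum in WT replicate 3. Without Scg2 the neuronal sum is not highest in WT replicate 3, though its member Syt1 is. Kcnj10 runs from 1942 to 2842 CPM and the astrocyte sum from 400.2 to 1173 CPM. Both are lowest in WT replicate 3, while Kcnj10 is highest in KO replicate 3 and the sum in KO replicate 1.

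Among the other potassium channels, Kcnk2 (Entrez Gene 16526, chr1:189207930-189402782), a tandem-pore background channel that responds to stretch and lipids, was scarce. It stood at 4.84, 6.17 and 1.65 CPM in KO replicates 1 to 3, against 6.08, 2.98 and 24.7 CPM in WT replicates 1 to 3. WT replicate 3 was the highest, and it also had the highest sum of neuronal markers, 545 CPM against 251 to 346 CPM in the other 5. That peak rested on Scg2, a neuronal secretory granule gene, which stood at 6.83, 36.7 and 5.38 CPM in KO and at 2.66, 31.0 and 226 CPM in WT. Without Scg2 the neuronal sum was 253, 309 and 329 CPM in KO and 248.65, 315 and 319 CPM in WT, and WT replicate 3 was not the highest. Of the single genes, Syt1 was also highest in WT replicate 3, at 21.6 CPM against 2.73 to 10.1 CPM in the other 5. Map2, the largest part of the sum without Scg2 at 212 to 282 CPM, and Rgs7 were not highest there. Rgs4, a neuronal regulator of G protein signalling, was lowest in WT replicate 3 at 5.04 CPM. The part of these genes in the Kcnk2 values was not tested. Kcnt2 (Entrez Gene 240776, chr1:140245657-140614045), a sodium-activated potassium channel, had 0 counts in all 12 libraries, where the limit of 3 counts allows up to 0.475 to 0.854 CPM per replicate. It was not detectable at this depth and could not be tested.

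Hcn2 (Entrez Gene 15166, chr10:79716634-79736108), a cation channel opened by hyperpolarization that is known from neurons and from oligodendrocytes, was abundant and uneven. It stood at 1316, 853 and 2393 CPM in KO replicates 1 to 3, against 3371.5, 1723 and 1027 CPM in WT replicates 1 to 3. WT replicate 1 and KO replicate 3 were the highest, and the genotypes overlapped. The highest value was 3.95 times the lowest. Its coefficient of variation was 53.6%, against a median of 10.5% over the 229 tested genes with a mean of at least 1000 CPM. Among those 229 genes 1 varied more, Sgk1, a kinase gene induced by glucocorticoids. Sgk1 stood at 45887, 13199 and 17093 CPM in KO and at 10429, 46207 and 30353 CPM in WT, with its lowest level in the replicate where Hcn2 was highest. In KO replicate 2, where Hcn2 was lowest, Sgk1 was also low, at 13199 CPM. Sgk1 and the 1000 CPM limit were chosen after the values were seen. The neuronal sum was 260.2, 346 and 334 CPM in KO replicates 1 to 3 and 251, 346 and 545 CPM in WT replicates 1 to 3, and the part of neuronal RNA in the Hcn2 values was not tested. Per length Hcn2 stood at 476 ± 247 CPM per kb in KO and 639 ± 377 CPM per kb in WT (SD, n = 3 each), rank 126 of 1948. It was above Kcnj10 in 3 of 6 replicates on that measure, so the order of these 2 genes was not settled.

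**Figure D3:**
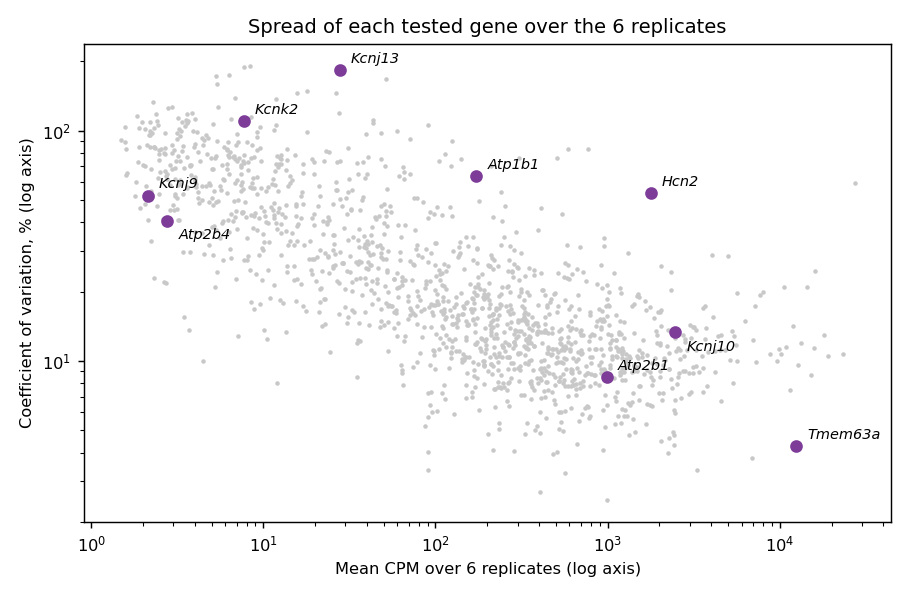
Coefficient of variation over the 6 replicates (%, log axis) against mean CPM (log axis) for the 1484 tested genes (grey) and the 9 tested channel and pump genes (purple). Tmem63a lies at the lower edge at 4.28%, and Hcn2 at 53.6% lies above nearly all genes of its level.

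Of the pumps, Atp2b1 (Entrez Gene 67972, chr10:98914630-99026143), a plasma membrane calcium pump of most cell types, was even across replicates. It stood at 1104, 917 and 956 CPM in KO replicates 1 to 3, against 889.9, 1065 and 989 CPM in WT replicates 1 to 3. Its coefficient of variation was 8.48%, and the genotypes overlapped. Atp2b4 (Entrez Gene 381290, chr1:133702674-133801059), another pump of the same family, had 6, 16 and 19 counts in KO and 20, 5 and 19 counts in WT. That is 1.71, 2.53 and 3.93 CPM in KO and 3.80, 1.24 and 3.42 CPM in WT. The ratio of Atp2b1 to Atp2b4 per kb lay between 385 and 1411 over the 6 replicates, and between 634 and 2322 with the median transcript length, so nearly all of the calcium pump transcript measured from this pair was Atp2b1.

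Atp1b1 (Entrez Gene 11931, chr1:164437099-164458355), a beta subunit of the sodium-potassium pump that brings the catalytic subunit to the membrane, varied among replicates. It stood at 355, 82.9 and 68.9 CPM in KO replicates 1 to 3, against 191, 234 and 106 CPM in WT replicates 1 to 3. KO replicate 1 was the highest and the other KO replicates were the lowest, so KO lay on both sides of WT. Among 835 tested genes with a mean of at least 100 CPM, a limit chosen after the values were seen, 10 varied more than Atp1b1. These were Atf3, Btg2, Col6a1, Dapk3, Ecrg4, Egr2, Fn1, Gja1, Perp and Wdfy1. The astrocyte sum was also highest in KO replicate 1, at 1173 CPM, but KO replicate 2 with 829 CPM stood above WT replicate 2 with 484 CPM, the reverse of Atp1b1. Fn1 and Col6a1, of the vascular and fibroblast list, were highest in KO replicate 1 and next in WT replicate 2, as was Atp1b1. Fn1 stood at 330, 103 and 78.0 CPM in KO and at 99.2, 196 and 38.5 CPM in WT. Col6a1 stood at 243, 78.5 and 46.3 CPM in KO and at 98.2, 135 and 27.5 CPM in WT. The sum of that list was highest in KO replicate 1 at 1350 CPM, but next in KO replicate 2 at 1331 CPM. The part of other cells in the Atp1b1 values was not tested. Of its exon bases, 18.7% are shared with Nme7 on the other strand, which stood at 58.7, 64.4 and 38.9 CPM in KO and at 60.8, 75.0 and 46.3 CPM in WT.

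By mean level per kb the order was Tmem63a, Hcn2, Kcnj10, Atp2b1, Atp1b1, Kcnj13, Kcnk2, Kcnj9 and Atp2b4, with means over the 6 replicates of 3776, 557, 459, 138, 67.1, 21.8, 2.16, 0.553 and 0.236 CPM per kb. Tmem63a lay above Hcn2 and Kcnj10 above Atp2b1 with no overlap between replicates. Atp2b1 was above Atp1b1 within each of the 6 replicates, though their ranges overlapped. Below that, the ranges of neighbours in the order overlapped. With the median transcript length of a gene in place of the longest, Atp2b1 moved up in the order to 676 CPM per kb against 459 for Kcnj10, and Tmem63a kept the first place at 20789 CPM per kb. The share of all counts that fell on the 10 genes ran from 1.68% to 1.95% over the replicates.

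The comparison of KO with WT asked whether transcripts of these channels and pumps differ when oligodendrocytes carry Cnp-Cre with floxed Lmna. For the steady, abundant genes it left little room for a difference. The log2 fold change, KO over WT, was 0.047 ± 0.11 (SE) for Tmem63a, with a 95% interval of 0.874 to 1.22 in fold. It was 0.076 ± 0.15 for Kcnj10, with an interval of 0.833 to 1.33 in fold, and 0.016 ± 0.12 for Atp2b1, with an interval of 0.838 to 1.22 in fold. These 3 genes, out of the 9 tested, had intervals within 1 log2 unit of 0, as had 63.6% of all genes tested. None of the 9 genes passed the quasi-likelihood test of edgeR, and each had a Benjamini-Hochberg adjusted p of 0.994 over 1484 genes. The count was 0 higher and 0 lower in KO, beside 0% of all tested genes in each direction. At an unadjusted p under 0.05 there were also 0 of the 9, beside 3.98% of all tested genes. DESeq2 called 0 of the 9, beside 0.404% of genes called higher and 0.0674% called lower. It gave Kcnj13 no p-value, adjusted or unadjusted, so that gene was not tested there. With limma-voom 0 were called. Kcnt2 did not enter the test.

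The uneven or scarce genes had wide intervals. Hcn2 averaged 1520 ± 789.8 CPM in KO and 2040 ± 1204 CPM in WT (SD, n = 3 each), a log2 fold change of -0.42 ± 0.56 (SE) with an interval of 0.283 to 1.96 in fold. Without WT replicate 1 its log2 fold change was 0.14, so that replicate set the sign. Atp1b1 averaged 169 ± 161 CPM in KO and 177 ± 65.2 CPM in WT, a log2 fold change of -0.071 ± 0.72. Its value was -1.22 without KO replicate 1 and 0.30 without KO replicate 3. The largest estimate was that of Kcnj13, -2.75 ± 1.54, and without WT replicate 1 it was 0.099. Kcnk2 had -1.41 ± 0.89, and -0.093 without WT replicate 3. Kcnj9 had 1.08 ± 0.87 and Atp2b4 -0.053 ± 0.82, from at most 20 counts in a replicate. Kcnj9 was the 1 gene of the 9 whose genotypes did not overlap, beside 8.49% of all tested genes. Of the 9 log2 fold changes, 4 were above 0 and 5 below, beside 49.5% of all tested genes above 0, with a median of -0.053, against a median of -0.0064 over all genes tested.

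**Figure D4:**
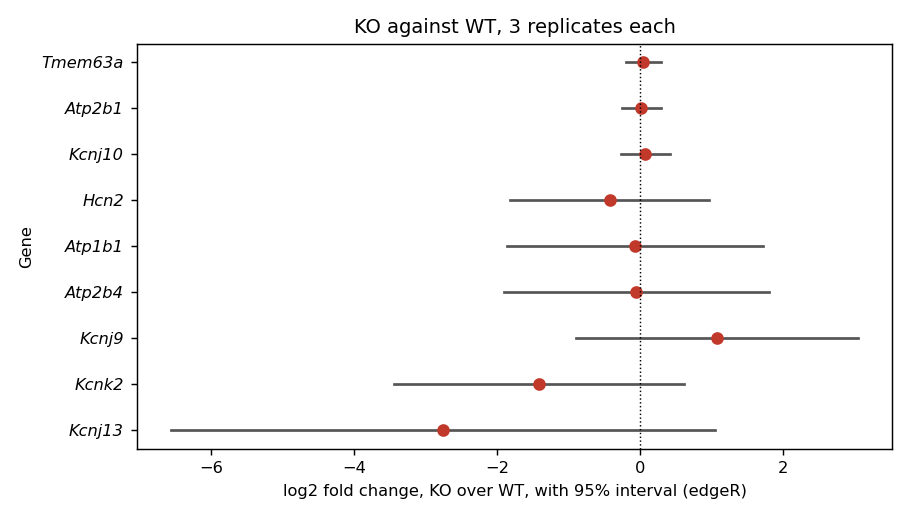
Log2 fold change, KO over WT, of the 9 tested genes (points) with 95% intervals (lines) from edgeR, ordered by standard error. The intervals of Tmem63a, Atp2b1 and Kcnj10 stay within 1 log2 unit of 0, and that of Kcnj13 runs from -6.56 to 1.05.

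Other channels, pumps and exchangers of these chromosomes were taken from 4 lists and gave the same count of calls. Of 32 such genes in the table, 17 were tested, and edgeR called 0 higher or lower in KO, beside 0% of all tested genes. At an unadjusted edgeR p under 0.05 there were 0 of the 17, beside 3.98% of all tested genes. DESeq2 called 0, beside 0.404% of all tested genes called higher and 0.0674% called lower. With limma-voom 0 were called, as over all genes. The 17 genes had a median log2 fold change of -0.0063, with 8 above 0 and 9 below, beside 49.5% of all tested genes above 0. The genes at 0 in all libraries were Trpa1, Atp6v1g3, Pkhd1, Chrnd and Slc9a4.

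The calcium list had 5 of 10 genes tested, and Mcu and Tmco1 serve organelles. Mcu, the pore of the mitochondrial calcium uniporter, averaged 94.0 ± 24.6 CPM in KO and 93.5 ± 9.31 CPM in WT (SD, n = 3 each). Tmco1, a calcium leak channel of the endoplasmic reticulum, averaged 1031 ± 70.4 CPM in KO and 1035 ± 182 CPM in WT. Casq1, a calcium-binding protein of the muscle sarcoplasmic reticulum, averaged 272 ± 49.9 CPM in KO and 309.9 ± 17.8 CPM in WT. The voltage-gated calcium channel genes of the list, Cacna1e and Cacna1s, stayed at or below 1.65 CPM in KO and 4.56 CPM in WT, too few counts to be tested.

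Potassium channel genes outside the 10 were scarce, with 3 of 6 tested. Kcne4, an accessory subunit, was the highest and stood at 118, 41.8 and 46.7 CPM in KO replicates 1 to 3, against 104, 73.5 and 10.3 CPM in WT replicates 1 to 3. Kcnb2 and Kcnq5, both voltage-gated channels, averaged 5.73 ± 5.57 and 2.72 ± 2.56 CPM in KO, against 3.86 ± 3.98 and 2.28 ± 0.402 CPM in WT. All 3 log2 fold changes were above 0, from 0.14 to 0.57, with standard errors of at least 0.81. Per kb, Kcne4 averaged 24.8 CPM over the 6 replicates, below the lowest Kcnj10 replicate at 359 CPM per kb. The highest single value of Kcnj13, 103 CPM per kb, was also below that of every Kcnj10 replicate.

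Among the pumps and their partners, 3 of 5 genes were tested. Atp6v1h, a subunit of the proton pump of lysosomes and endosomes, averaged 1490.3 ± 135 CPM in KO and 1517 ± 204 CPM in WT. Nkain2, whose product binds the sodium-potassium pump, averaged 863 ± 79.4 CPM in KO and 877 ± 189 CPM in WT. Atp1a4, a catalytic subunit known from sperm, stayed at or below 3.70 CPM in KO and 3.23 CPM in WT and was not tested. In the last list, 6 of 11 genes were tested. Pacc1, a chloride channel opened by acid, averaged 337 ± 50.9 CPM in KO and 335 ± 33.4 CPM in WT. Grik2, a kainate receptor subunit, averaged 239.5 ± 19.2 CPM in KO and 242 ± 26.7 CPM in WT. The anion exchanger Slc4a3 averaged 59.4 ± 12.5 CPM in KO and 50.0 ± 37.9 CPM in WT, and the sodium-proton exchanger Slc9a2 averaged 57.8 ± 65.5 CPM in KO and 28.5 ± 22.0 CPM in WT. Each adjusted p in these lists was 0.994 or 0.995 by edgeR.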

How the data were processed

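RNA from sorted oligodendrocytes was sequenced as single-end reads, per the labels' protocols. The authors deposited unscaled counts of reads for each gene in each library. The submitters' processing notes name HISAT2, featureCounts, fastp, FastQC, SAMtools 1.4.1, CASAVA 1.8.2 and DESeq2 1.38.1 and the build mm10, while annotation, strand use and parameters are not stated. The table held 2398 complete lines, and 1 that stopped early was left out. RefSeq for GRCm38 gave symbols for 2226 identifiers. The other 172 held 0.552% of the counts and stayed in the fits.

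The 2 libraries of a replicate agreed closely (chi-square per degree of freedom 1.00 to 1.06) and were summed. The fit used edgeR 4.0.16 under R 4.3.3, with filterByExpr, TMM factors (0.951 to 1.05), robust quasi-likelihood tests and a Benjamini-Hochberg threshold of 0.05. The fits were also run on simulated counts with known changes and a single spread for all genes, unlike these data. The outcome is not reported here. Each SE was the absolute log2 fold change over the root of F. With 3 against 3, an exact permutation test cannot give a two-sided p under 0.1. CPM refer to the table's genes and do not give library depth. Floors of 3 counts cover counting error only. Lengths come from GENCODE M21.

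Members and lists were chosen with earlier results of these data known. Text names all 10 members, up to 4 genes of highest CPM per list, and others chosen after their values were seen. Some list genes are counted but not reported here by name. List genes were not checked for overlaps. Alternatives were other size factors, no filter, DESeq2 1.42.0, limma-voom 3.58.1, a replicate block, other uses of the 2 libraries, leaving out replicates, and another transcript length.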

Additional observations from a re-analysis of the deposited data

How the results depend on the processing

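No alternative called any of the 10 genes or of the other 32 channel and pump genes: other size factors, no filter on low counts, DESeq2, limma-voom, the replicate block, 12 separate libraries, either library of a replicate alone, and leaving out each replicate all gave 0. Over all genes, the 0 calls became 7 with DESeq2 (6 higher and 1 lower) and 49 with edgeR on 12 separate libraries (31 and 18), which by construction counts the 2 libraries of a replicate as independent. For DESeq2 the cause was not tested. Leaving out each replicate kept 0 calls over all genes. It moved the log2 fold change between -0.050 and 0.19 for Kcnj10, -0.070 and 0.086 for Atp2b1, -0.91 and 0.14 for Hcn2, -1.22 and 0.30 for Atp1b1, -4.09 and 0.099 for Kcnj13, and -0.41 and 0.21 for Atp2b4. The sign held for Tmem63a (0.013 to 0.095), Kcnk2 (-1.86 to -0.093) and Kcnj9 (0.81 to 1.75). With the replicate block the sign of Atp2b4 turned (0.023), and 49 genes had an unadjusted p under 0.05 against 59 without it. Kcnj13 was among the 49, with an unadjusted edgeR p of 0.0089 and an adjusted p of 0.998. Without KO replicate 1 the unadjusted edgeR p of Atp1b1 was 0.0061 (adjusted 0.995). With 12 separate libraries it was 0.020 for Kcnj13 and 0.044 for Kcnk2 (adjusted 0.18 and 0.26). No other alternative put any of the 10 genes under 0.05 unadjusted. Same-numbered replicates had correlated deviations of -0.0011, -0.30 and 0.14 across genes, so the numbers were not taken to pair the samples. Kcnj9 and Atp2b4 did not pass the filter with 12 libraries or with 1 library per replicate, and have no value there. For Kcnj9, Atp2b4 and Kcnk2 the depth limits what can be seen, with 3 to 137 counts per replicate.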
